A study of Mus musculus with 6 samples.

Results

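The macrophage and monocyte genes followed here are 34 genes used to recognise these cells in mouse tissue. They were taken by name from a list: every probe set whose only platform gene symbol was a listed gene counted, which gave 57 probe sets for the 34 genes out of 18193 genes named on the array. A gene with more than 1 probe set is represented by its brightest, by the mean of the 6 tumours. The RNA came from 6 tumours of male mice on the GRS/A strain background, all grown from GLMT1 cells, a tumour line named after a GRS/A lung metastasis. The groups were 3 tumours from tenascin-C-deficient hosts (GRS/A-TgH(TnC), called TNKO) and 3 from GRS/A hosts with intact tenascin-C (WT). Cells were injected under the back skin at 1e+07 cells per ml in 100 microlitres. The hosts were inoculated at 8 weeks of age, and the labels of the tumours give a host age of 10 weeks. The labels describe the host, not the GLMT1 cells, as deficient, and 1 tumour line was used throughout. Tnc itself averaged 8.82 ± 0.0181 in TNKO tumours and 9.02 ± 0.0243 in WT tumours on the deposited log2 scale (SD, n = 3 each, adjusted p = 0.0537 by limma). Where its probes lie in the gene was not examined, so this is no check of the genotype. Replicates are described as biological, with 3 mice in each group, and no sort of cells is described before RNA extraction.

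Macrophages in a tumour graft come from the host. They mature from blood monocytes that enter through chemokine receptors such as Ccr2, and from cells already in the tissue, and they depend on the growth factor receptor encoded by Csf1r. They engulf antibody-coated particles, dying cells and modified lipoproteins through Fc, lectin and scavenger receptors, many of which signal through the small adaptors Tyrobp and Fcer1g. Tenascin-C is a matrix glycoprotein that is scarce in most adult tissue, abundant in tumour stroma and wounds, and known as a ligand of integrins and of Toll-like receptor signalling on macrophages.

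Because the tumours' deposited values lay very close together, a small unit is used below: a millionth is 1e-06 of a deposited log2 unit. From the lowest to the highest of the 6 tumours, the median probe set covered 5.46e-06 log2 units. Values in each tumour are given as millionths above or below the mean of the WT tumours. How the authors' processing led to such small differences is not given in the sources used, so a value in millionths cannot be turned into a fold change of RNA. Differences are TNKO minus WT, with the SE of the limma fit, and are also given in residual SDs, the spread of that gene within the groups. Of the 34 genes, 27 lay above the median level of all genes, 7.09. Csf1r, C1qa, Lyz2 and Apoe had levels above 11, and the lowest level was 5.49 for Chil3. In these bulk tumours, fewer macrophages and less RNA of a gene per macrophage cannot be told apart.

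No macrophage or monocyte gene passed the test over all probe sets. By limma with Benjamini-Hochberg adjustment, 0 of the 34 genes had an adjusted p under 0.05, against 22 of all 18193 genes (0.121%). The same was true of all 57 probe sets of these genes, where 0 passed, against 79 of 45037 (0.175%). Of those 79, 19 were higher and 60 lower in TNKO tumours; the fit after subtraction of array medians made its own calls, 58 higher and 10 lower. There were 7 genes higher in TNKO tumours with an unadjusted p under 0.05, a share of 20.6% against 9.99% of all genes, and 0 lower, against 8.43% of all genes. In 10 of the 34 genes (29.4%) every TNKO tumour lay above every WT tumour, against 15.0% of all genes. In 0 of the 34 did every TNKO tumour lie below, against 11.1% of all genes. The mean was higher in TNKO tumours for 25 of 34 genes as deposited, against 57.6% of all genes, but for 7 of 34 after quantile normalization and 6 of 34 after subtraction of array medians. Those scalings acted on the whole array, leaving 319 and 237 of the 18193 genes with a higher TNKO mean. They left 31 and 32 of the 18193 with every TNKO tumour above every WT tumour. The median difference was 0.58 residual SDs, against 0.28 over all genes, and the largest of the 34 was 4.72, for Clec4n. In simulated data the fit recovered 3 of 50 differences of 5 residual SDs. That 0 of the 34 passed therefore does not show that the groups were equal.

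**Figure D1:**
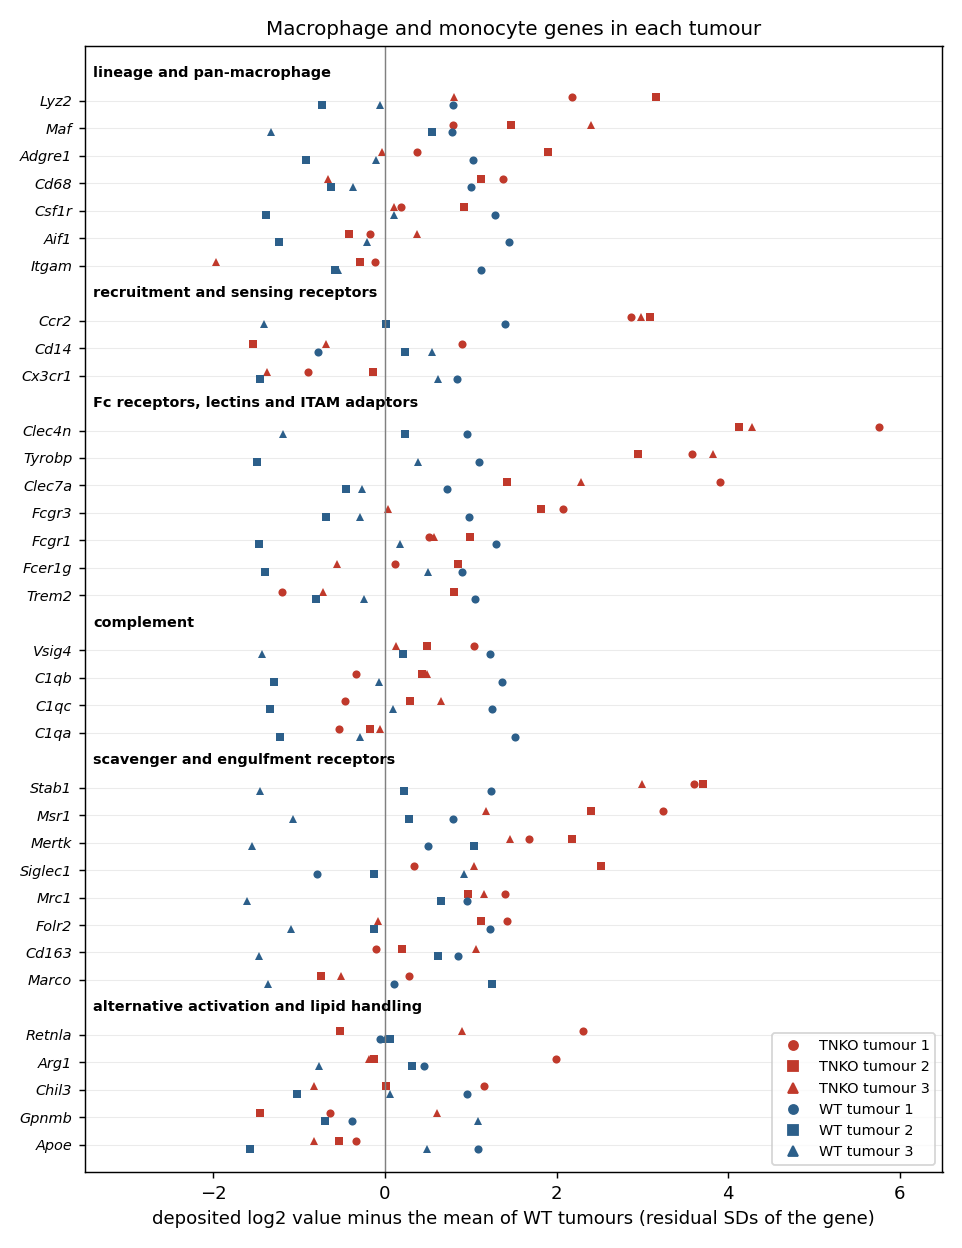
Each row is a gene and each point a tumour; the horizontal axis is the deposited log2 value minus the mean of the WT tumours, divided by the residual SD of the gene, with genes grouped by role. The TNKO points of Clec4n, Tyrobp, Stab1 and Ccr2 lie to the right of all WT points as deposited, while those of the C1q genes lie among them. After quantile normalization or subtraction of array medians the difference of Clec4n, Tyrobp and Stab1 turned below 0. The second of these scalings moved every difference by the same amount, whatever its size in residual SDs.

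**Figure D2:**
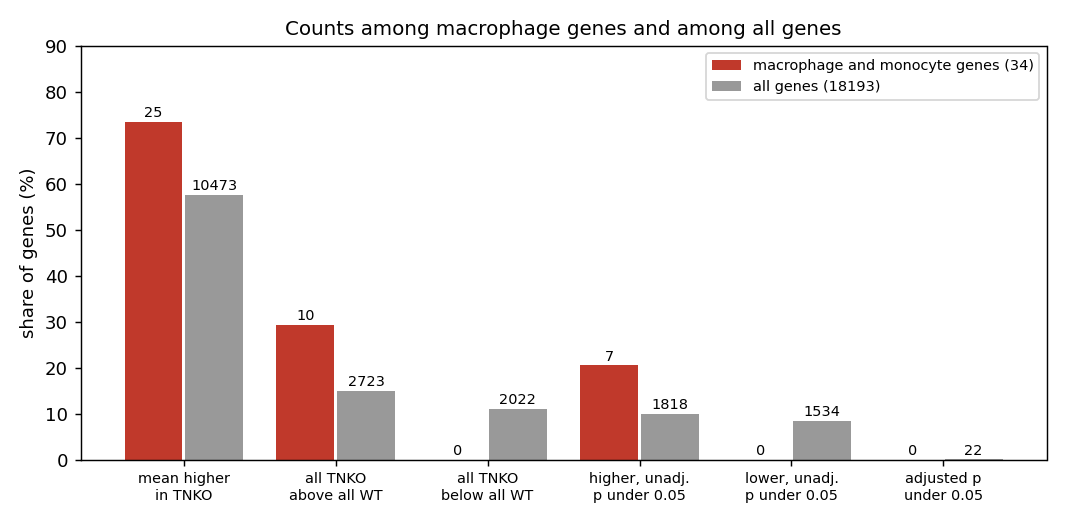
Bars give the share, in percent, of the 34 macrophage and monocyte genes (left bar of each pair) and of all 18193 genes (right bar) that met each criterion as deposited, with the count above each bar. Every TNKO tumour was above every WT tumour in 29.4% of the macrophage and monocyte genes, against 15.0% of all genes. After quantile normalization or subtraction of array medians this held for 0 of 34, against 31 and 32 of all 18193 genes.

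The 10 genes with separate groups were Clec4n, Tyrobp, Stab1, Ccr2, Clec7a, Msr1, Lyz2, Mertk, Maf and Mrc1. They include C-type lectins and a signalling adaptor, scavenger and engulfment receptors, the monocyte chemokine receptor, lysozyme and a transcription factor. Within this group WT tumour 3 was the lowest array in 7 of 10 genes and WT tumour 2 in the other 3. WT tumour 1 was above WT tumour 2 in 9 of the 10. These 10 genes were picked out by their values, so their number is read only against the background shares above.

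Ccr2, the receptor through which inflammatory monocytes follow CCL2 into tissue, stood 1304, 1408 and 1360.4 millionths above the WT mean in TNKO tumours, against 639, 5.07 and -644 millionths in WT tumours. The TNKO tumours lay close together and above all WT tumours, which were spread widely. The difference was 1358 millionths (SE 347), or 2.98 residual SDs, with an adjusted p of 0.150. Ccr2 was read by 4 probe sets, and 4 of 4 were higher in TNKO tumours as deposited. In the third brightest of these the TNKO tumours stood at 57.9, 68.9 and 74.2 millionths, against 27.2, 2.51 and -29.7 millionths in WT tumours, again with no overlap. The remaining probe sets differed by 8.89 and 10.3 millionths and overlapped. Cx3cr1, the fractalkine receptor of patrolling monocytes and many tissue macrophages, gave -78.1, -12.5 and -120.1 millionths in TNKO tumours, against 73.5, -127 and 53.8 millionths in WT tumours. Its groups overlapped, with a difference of -70.2 millionths (SE 66.5, adjusted p = 0.615). Cd14, the co-receptor for bacterial lipopolysaccharide, also overlapped: 39.8, -68.8 and -30.5 millionths in TNKO tumours, against -34.7, 10.5 and 24.2 millionths in WT tumours (difference -19.8, SE 34.1).

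Among Fc receptors, lectins and their adaptors 6 of 7 genes were higher in TNKO tumours as deposited, 3 of them with separate groups, against 57.6% and 15.0% of all genes. Quantile normalization left 1 of 7 higher and 0 separate, as did subtraction of array medians. Of all 18193 genes they left 319 and 237 higher, and 31 and 32 separate with TNKO above. Clec4n encodes dectin-2, a lectin for fungal mannans that signals through Fcer1g. It had the smallest adjusted p of the 34 genes, 0.0899. Its TNKO tumours stood at 338, 242 and 251 millionths, against 56.4, 13.5 and -69.9 millionths in WT tumours, a difference of 277 millionths (SE 44.8) or 4.72 residual SDs. The lowest TNKO tumour was further from the highest WT tumour than the WT tumours were from each other. The probe set that stands for Clec4n carries the suffix of sets whose probes can match several transcripts. The other probe set, with the suffix for transcripts of 1 gene, also separated the groups, at 90.2, 57.5 and 82.2 millionths in TNKO tumours, against 3.04, 17.6 and -20.7 millionths in WT tumours (4.21 residual SDs).

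Clec7a encodes dectin-1, the receptor for fungal beta-glucan, which carries its own signalling motif. Its TNKO tumours stood at 2152, 779.9 and 1255 millionths, against 396, -249 and -147 millionths in WT tumours, a difference of 1396 millionths (SE 420.1, adjusted p = 0.185). TNKO tumour 1 was the highest and spread the group. Tyrobp, the adaptor also called DAP12 that carries an activating motif for receptors such as Trem2, stood at 33.5, 27.6 and 35.8 millionths in TNKO tumours, against 10.3, -13.9 and 3.60 millionths in WT tumours. The groups did not overlap, with a difference of 32.3 millionths (SE 7.14), or 3.46 residual SDs (adjusted p = 0.125). Fcer1g, the gamma chain shared by several Fc receptors, gave 5.46, 39.4 and -26.0 millionths in TNKO tumours, against 41.7, -65.1 and 23.3 millionths in WT tumours. These overlapped fully, and the difference was 6.28 millionths (SE 35.5). The contrast between the adaptors, separate groups in Tyrobp and overlap in Fcer1g, was not itself tested.

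Of the Fc receptors, Fcgr1, the high-affinity receptor for IgG, differed by 24.3 millionths (SE 26.8), with the TNKO tumours between WT tumours 1 and 2. Its dimmer probe set separated the groups, at 5.34, 6.75 and 7.62 millionths in TNKO tumours, against 0.0383, -3.35 and 3.31 millionths in WT tumours. Fcgr3, a low-affinity IgG receptor, differed by 7.50 millionths (SE 4.38) and overlapped. Trem2, a lipid-sensing receptor of tumour and tissue macrophages, differed by -2.72 millionths (SE 5.56) and overlapped. Its dimmer probe set had the other sign, at 0.0657 millionths (SE 0.234), and overlapped too.

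**Figure D3:**
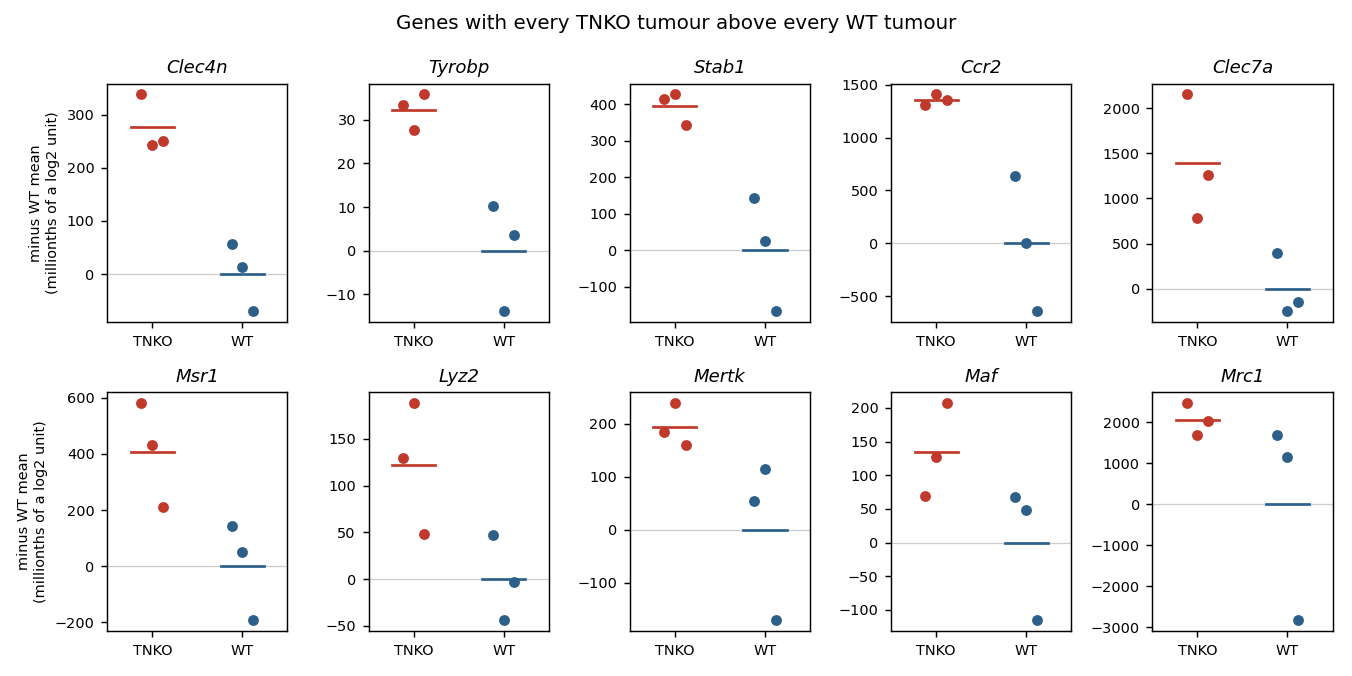
Each panel shows a gene with every TNKO tumour above every WT tumour as deposited; points are tumours, bars are group means, and the vertical axis is millionths of a deposited log2 unit above the WT mean, with its own scale in each panel. The gap between the groups is wide in Clec4n, Stab1 and Ccr2 and narrow in Lyz2, Maf and Mrc1. Of these 10 genes only Ccr2, Clec7a and Mrc1 kept a higher TNKO mean after both quantile normalization and subtraction of array medians. Subtraction of array medians moved every difference down by the same amount. Which genes kept their sign there follows from the size of the deposited difference alone.

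Scavenger and engulfment receptors were higher in 7 of 8 genes as deposited, 4 of them with separate groups, against 57.6% and 15.0% of all genes. After quantile normalization or subtraction of array medians 2 of 8 were higher and 0 separate. For all 18193 genes the counts were 319 and 237 higher, and 31 and 32 separate with TNKO above. Stab1 encodes stabilin-1, a scavenger receptor of alternatively activated and perivascular macrophages. It stood at 414, 427 and 344 millionths in TNKO tumours, against 142, 25.5 and -167 millionths in WT tumours, a difference of 395 millionths (SE 87.5), or 3.45 residual SDs (adjusted p = 0.126). The lowest TNKO tumour was well above the highest WT tumour. Msr1, scavenger receptor A for modified lipoproteins, stood at 581, 431 and 211 millionths in TNKO tumours, against 143, 49.3 and -192 millionths in WT tumours. Its difference was 408 millionths (SE 137, adjusted p = 0.213), and 4 of its 4 probe sets were higher in TNKO tumours as deposited, the other 3 with overlap. Mertk, a receptor kinase for the engulfment of dying cells, stood at 184, 239 and 160.1 millionths in TNKO tumours, against 55.4, 114 and -169.9 millionths in WT tumours. The groups were close, and the difference of 194 millionths (SE 83.9) had an adjusted p of 0.293 and was 109 without WT tumour 3.

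Mrc1, the mannose receptor CD206, had the greatest difference in millionths among the 10 separate genes and the weakest against its own spread. Its TNKO tumours stood at 2468, 1702 and 2032 millionths, against 1681, 1147 and -2828 millionths in WT tumours. WT tumour 3 was far below the other tumours, and WT tumour 1 almost reached TNKO tumour 2. The difference was 2068 millionths (SE 1345, adjusted p = 0.459), and without WT tumour 3 it was 654 millionths. Folr2, a folate receptor of resident macrophages, overlapped: 1454, 1143 and -89.0 millionths in TNKO tumours, against 1252, -131 and -1122 millionths in WT tumours. Its difference of 836 millionths (SE 779.8) was 275 without WT tumour 3, 527 without TNKO tumour 1, 1299 without TNKO tumour 3 and 1462 without WT tumour 1. Siglec1, the sialic acid receptor CD169, differed by 12.6 millionths (SE 7.42) and overlapped. Its dimmer probe sets differed by -0.616 and 0.222 millionths, also with overlap. Cd163, the receptor for haemoglobin and haptoglobin, and Marco, a scavenger receptor of marginal zone and alveolar macrophages, were dim, at levels of 5.77 and 6.16, and differed by 3.53 and -0.266 millionths with overlap.

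Among the genes used for lineage and for macrophages as a whole, 5 of 7 were higher as deposited and 2 separated the groups, against 57.6% and 15.0% of all genes. Under either of the other scalings named above, 0 of 7 were higher, against 319 and 237 of all 18193 genes. Lyz2, lysozyme M, stood at 129.6, 188 and 47.7 millionths in TNKO tumours, against 47.3, -43.7 and -3.56 millionths in WT tumours. TNKO tumour 3 and WT tumour 1 nearly touched. The difference was 122 millionths (SE 45.4, adjusted p = 0.241), and whether the probes also read the close copy Lyz1 was not tested. Maf encodes c-Maf, a transcription factor of resident and alternatively activated macrophages that lymphocytes and other cells also express. It stood at 68.6, 127 and 207 millionths in TNKO tumours, against 67.7, 47.7 and -115 millionths in WT tumours, a difference of 134 millionths (SE 65.9), with TNKO tumour 1 and WT tumour 1 almost level. Without WT tumour 3 it was 76.4 millionths. Of its 6 probe sets 5 were higher in TNKO tumours as deposited and 3 separated the groups, 1 of the dimmer ones more clearly than the brightest: 59.1, 85.4 and 62.0 millionths in TNKO tumours, against 18.8, 3.31 and -22.1 millionths in WT tumours (3.87 residual SDs).

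The other 5 of these 7 lineage and pan-macrophage genes overlapped between hosts. Of all genes, 15.0% were separate with TNKO above and 11.1% with TNKO below. Csf1r, the receptor for colony-stimulating factor 1, stood at 1.24, 6.09 and 0.673 millionths in TNKO tumours, against 8.44, -9.11 and 0.663 millionths in WT tumours (difference 2.67, SE 5.01). All TNKO values lay between those of WT tumours 1 and 2. Adgre1, which encodes F4/80, gave 3.91, 20.1 and -0.322 millionths in TNKO tumours, against 10.9, -9.76 and -1.13 millionths in WT tumours (difference 7.90, SE 8.08). Cd68, a glycoprotein of late endosomes and lysosomes, differed by 24.6 millionths (SE 30.8) and Aif1, which encodes the actin-binding protein Iba1, by -1.24 millionths (SE 13.3). Itgam, the integrin chain CD11b shared with neutrophils, differed by -6.10 millionths (SE 5.88). Each of these 5 genes had an adjusted p above 0.6, with differences under 1 residual SD in either direction.

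Complement genes overlapped as well, with 0 of 4 separate. Most genes of the array overlapped too, as 15.0% were separate with TNKO above and 11.1% with TNKO below. C1qa, C1qb and C1qc, which encode the chains of C1q, the first component of the classical complement pathway and a product of macrophages, were among the brightest genes of the list. C1qa stood at -11.2, -3.69 and -1.20 millionths in TNKO tumours, against 31.7, -25.6 and -6.14 millionths in WT tumours. C1qb stood at -8.77, 11.1 and 12.5 millionths in TNKO tumours, against 35.1, -33.4 and -1.78 millionths in WT tumours. C1qc stood at -11.5, 7.31 and 16.3 millionths in TNKO tumours, against 31.0, -33.3 and 2.29 millionths in WT tumours. For the brightest probe set of each of the 3 genes the TNKO tumours lay inside the range of the WT tumours, and adjusted p ran from 0.894 to 0.938. C1qb had 3 probe sets, all with overlap, and 1 of the dimmer ones differed by -0.497 millionths. The dimmest stood at 4.18, 10.1 and 15.1 millionths in TNKO tumours, against 3.66, 5.53 and -9.19 millionths in WT tumours. Its difference was 9.79 millionths (SE 5.24, adjusted p = 0.378). Vsig4, a complement receptor of resident macrophages, was dim and differed by 211 millionths (SE 289.9).

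The same WT tumours stood at both ends in many of these overlapping genes. Among all 6 tumours, the top value came from WT tumour 1 and the bottom value from WT tumour 2 in 9 of the 34 genes (26.5%), against 327 of 18193 genes (1.80%). The 9 genes were Aif1, Apoe, C1qa, C1qb, C1qc, Csf1r, Cx3cr1, Fcer1g and Fcgr1, noticed in the data and given as a description. The order is that of the brightest probe sets. The dimmer probe sets of C1qb, Cx3cr1 and Fcgr1 and the dimmest of Csf1r did not have it. WT tumour 1 was above WT tumour 2 in 29 of the 34 genes (85.3%), against 47.8% of all genes. That the WT tumours enclosed the TNKO tumours in these 9 genes follows from how the 9 were chosen. The sign of several differences rested on 1 tumour. Without WT tumour 2 the difference was -1.88 millionths for Csf1r, -11.7 for C1qb, -12.6 for C1qc, -26.3 for Fcer1g and -1.48 for Fcgr1, each above 0 with all tumours. In that fit 2 genes were lower in TNKO tumours at an unadjusted p under 0.05, Apoe and Cx3cr1, and 5 were higher, where 8131 of all 45037 probe sets had such a p in either direction. Without WT tumour 1 the difference of C1qa was 10.5 millionths.

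**Figure D4:**
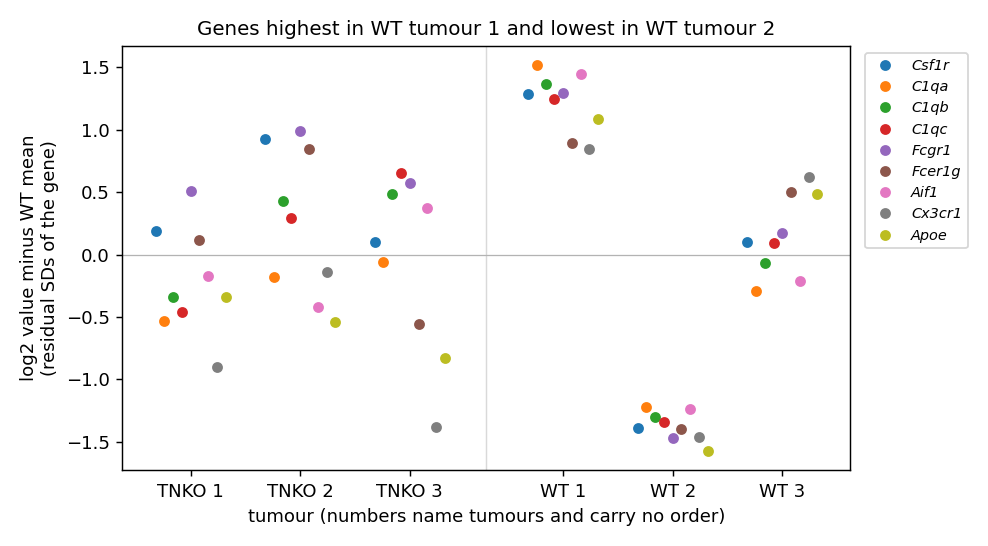
Points give, for the 9 genes that were highest in WT tumour 1 and lowest in WT tumour 2, the deposited log2 value minus the WT mean in residual SDs of each gene (vertical axis) in each of the 3 TNKO and 3 WT tumours (horizontal axis). The TNKO points of all 9 genes lie between those of WT tumours 1 and 2, which follows from how the genes were chosen.

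Among genes of alternative activation and lipid handling, 0 of 5 separated the groups, and the value of Arg1 rested on a single tumour. Of all genes, 15.0% were separate with TNKO above and 11.1% with TNKO below, so most genes overlapped. Arg1, arginase 1, which macrophages of wounds and tumours use to break down arginine, stood at 15956, -1045 and -1472 millionths in TNKO tumours, against 3646, 2527 and -6173 millionths in WT tumours. TNKO tumour 1 alone was high, while TNKO tumours 2 and 3 lay inside the WT range. The difference of 4479.8 millionths (SE 6098, adjusted p = 0.740) became -1258 without TNKO tumour 1. Retnla, which encodes the interleukin-4-induced protein RELM-alpha and is also expressed in fat, stood at 2935, -660.5 and 1144 millionths in TNKO tumours, against -68.4, 71.6 and -3.25 millionths in WT tumours. WT tumours lay close together, and TNKO tumours lay on both sides of them (difference 1139, SE 971). Without TNKO tumour 1 the difference was 242 millionths, and without TNKO tumour 2 it was 2039. Chil3, the chitinase-like protein Ym1, was the dimmest gene and differed by 1.16 millionths (SE 7.68). Apoe, apolipoprotein E, differed by -18.6 millionths (adjusted p = 0.736) and Gpnmb, a glycoprotein of lipid-laden macrophages, by -13.1 millionths (SE 20.1), both with overlap. The dimmer probe set of Gpnmb had the other sign, at 0.197 millionths (SE 0.238), and overlapped too.

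Promoters of the separate genes are shown for a motif of PU.1, the transcription factor that macrophage development requires and that binds purine-rich stretches. RefSeq windows of 300 bases (250 before to 50 after the start, build GRCm38.p6) were held for 24 of the 34 genes, 29 windows in all. The letters GAGGAA, or TTCCTC on the other strand, were found in 18 of the 29 windows (62.1%), against 28.3% of all 32851 windows. The letters TATAAA or TTTATA were found in 4 of 29 (13.8%), against 13.6%. Other factors of the same family bind similar letters. Of the 10 separate genes, 6 had a window, and those of Clec7a, Mrc1 and Stab1 held GAGGAA or TTCCTC, while those of Ccr2, Lyz2 and Mertk did not. These 6 genes had 7 windows, of which 4 (57.1%) held the letters, against 62.1% of the windows of all listed genes. C1qb and C1qc, among other genes whose values overlapped, held it as well. The windows follow 5′ to 3′ on the strand of the gene, with matches in capitals: Clec7a lies at chr6:129472730-129473029 (minus strand, 1 match), Mrc1 at chr2:14229164-14229463 (plus strand, 3 matches), Stab1 at chr14:31168592-31168891 (minus strand, 1 match), and Ccr2, shown for its 4 probe sets in 1 direction, at chr9:124101933-124102232 (plus strand, no match).
Clec7a: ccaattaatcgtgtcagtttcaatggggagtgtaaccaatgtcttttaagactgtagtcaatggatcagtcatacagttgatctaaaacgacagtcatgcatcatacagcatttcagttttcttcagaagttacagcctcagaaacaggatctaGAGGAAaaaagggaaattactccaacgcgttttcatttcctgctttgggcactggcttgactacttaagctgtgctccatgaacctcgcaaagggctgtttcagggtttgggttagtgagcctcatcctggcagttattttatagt
Mrc1: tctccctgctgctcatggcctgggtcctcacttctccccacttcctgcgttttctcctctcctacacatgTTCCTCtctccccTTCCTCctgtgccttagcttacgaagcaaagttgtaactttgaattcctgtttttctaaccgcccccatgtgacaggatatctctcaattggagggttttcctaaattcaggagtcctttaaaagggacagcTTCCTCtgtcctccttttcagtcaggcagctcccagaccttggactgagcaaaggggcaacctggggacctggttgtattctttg
Stab1: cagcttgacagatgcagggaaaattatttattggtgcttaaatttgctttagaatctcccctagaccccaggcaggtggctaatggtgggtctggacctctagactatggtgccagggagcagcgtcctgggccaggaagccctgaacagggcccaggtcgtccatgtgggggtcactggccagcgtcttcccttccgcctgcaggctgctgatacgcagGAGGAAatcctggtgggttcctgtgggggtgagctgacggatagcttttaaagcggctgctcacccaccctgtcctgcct
Ccr2: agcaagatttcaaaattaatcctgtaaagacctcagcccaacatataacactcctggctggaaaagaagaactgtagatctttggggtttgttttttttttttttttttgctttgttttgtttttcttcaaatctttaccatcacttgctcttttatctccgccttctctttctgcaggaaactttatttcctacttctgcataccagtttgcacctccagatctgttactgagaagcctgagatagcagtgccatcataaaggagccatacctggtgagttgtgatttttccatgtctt
A match is a description of the letters in these windows and not a binding site.

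Other genes of the pathway lay on both sides of 0, where 57.6% of all genes had a higher TNKO mean. Their lists were set by function, but with earlier results of these data known. Of 16 growth factors and transcription factors of macrophages, 7 were higher and 9 lower in TNKO tumours. Mitf, a factor of osteoclasts and lysosomal genes, differed by 7.67 millionths (4.66 residual SDs, adjusted p = 0.0931). Cebpb, a factor of inflammatory macrophages, differed by -33.8 millionths (-3.78 residual SDs, adjusted p = 0.114), and Cebpa by 191 millionths (2.04 residual SDs, adjusted p = 0.243). Among ligands that draw monocytes, 4 of 11 were higher. Ccl2, the main ligand of Ccr2, differed by 99.4 millionths (SE 38.8, adjusted p = 0.256) with every TNKO tumour above every WT tumour, whereas Cx3cl1, the ligand of Cx3cr1, differed by -107 millionths (SE 27.5, adjusted p = 0.151) with every TNKO tumour below. Vegfa differed by -639 millionths (SE 192, adjusted p = 0.185).

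Genes of phagocytosis, lysosomes and efferocytosis were higher in 14 of 25 (56.0%), against 57.6% of all genes, with 4 lower and 1 higher at an unadjusted p under 0.05. The 3 with the smallest p were lysosomal proteins, the protease Ctsz at -129.7 millionths (SE 24.8, adjusted p = 0.107), the sterol carrier Npc2 at -15.5 and the protease Ctsl at -31.0, each with every TNKO tumour below every WT tumour. Downstream of the adaptors, 4 of 12 genes were higher. Vav1, an exchange factor, differed by -30.1 millionths and Syk, the kinase that binds the activating motif, by 8.75 millionths (adjusted p = 0.234 and 0.303). Lat2 differed by -25.2 millionths (adjusted p = 0.256). Inflammatory products of macrophages were higher in 7 of 14 genes, with Cxcl2, a neutrophil chemokine, at -17326 millionths (SE 5543) and Ptgs2, cyclooxygenase 2, at -2119 (SE 722). Tnf differed by 6.69 millionths (SE 2.99) and overlapped. No gene of these 5 lists passed adjustment, and with an unadjusted p under 0.05 there were 3 higher (3.85% of the 78 measured, against 9.99% of all genes) and 10 lower (12.8%, against 8.43%). Quantile normalization left at most 1 gene with a higher TNKO mean in each of the 5 lists, as did subtraction of array medians. Of all 18193 genes they left 319 and 237.

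Markers of other cells also differed in mean, with 0 past the adjusted threshold in any list. The counts below stand against 57.6% of all genes with a higher TNKO mean and 15.0% separate with TNKO above. Neutrophil markers were higher in 10 of 10 genes as deposited, 5 of them with separate groups, and their deposited values summed to 66.8866 to 66.8898 in TNKO tumours and 66.8862 to 66.8870 in WT tumours. Mmp8, the neutrophil collagenase, differed by 18.1 millionths (adjusted p = 0.0702). B and plasma cell markers were higher in 7 of 7, with sums of 43.6173 to 43.6193 in TNKO tumours and 43.6010 to 43.6065 in WT tumours. Jchain and Igha, products of antibody-secreting cells, differed by 4572 and 10009 millionths (adjusted p = 0.0702 and 0.0715). T and NK cell markers were higher in 8 of 10, with 2 separate, and dendritic cell markers in 4 of 9. Mast cell markers were higher in 3 of 8. Endothelial markers were higher in 8 of 8 with 1 separate, and fibroblast markers in 7 of 8 with 0 separate in that direction. Epithelial markers were higher in 3 of 8. After subtraction of array medians, 1 of 10 neutrophil markers, 2 of 7 B and plasma cell markers, 0 of 10 T and NK markers and 0 of 8 endothelial markers kept a higher TNKO mean. Of all 18193 genes 237 had a higher TNKO mean under that scaling.

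**Figure D5:**
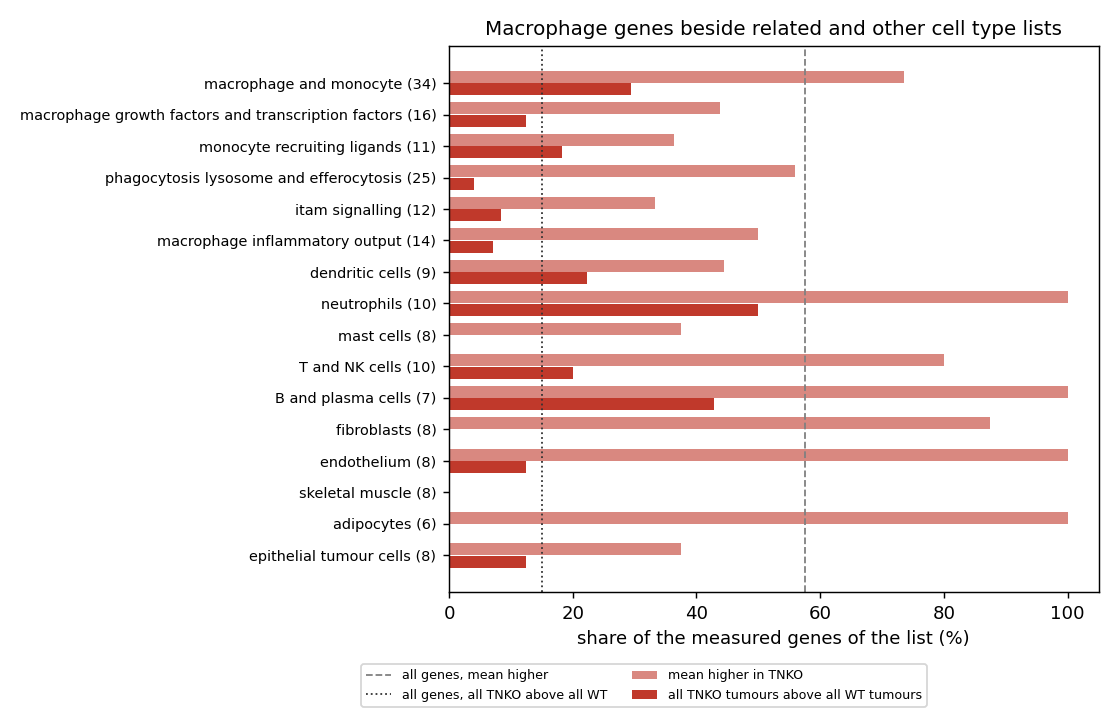
Bars give, for each list (measured genes in brackets), the share of genes in percent with a higher TNKO mean and the share with every TNKO tumour above every WT tumour, as deposited; broken lines mark the same shares over all genes, 57.6% and 15.0%. Macrophage and monocyte genes lie above both lines, as do neutrophil, T and NK, and B and plasma cell markers, while those of macrophage growth factors, phagocytosis, adaptor signalling and inflammatory products are among the lists below both. After subtraction of array medians the shares with a higher mean shrank to 6 of 34 macrophage and monocyte genes and 237 of all 18193.

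Fat and muscle markers differed between tumours as well. Adipocyte markers were higher in 6 of 6 genes, with sums of 43.0279 to 45.3698 in TNKO tumours and 41.7573 to 43.5159 in WT tumours, highest in TNKO tumour 1 and lowest in WT tumour 3 for 6 of 6, and the count stayed 6 of 6 under every scaling. Of the 34 macrophage and monocyte genes, 5 had the same highest and lowest tumour: Clec4n, Msr1, Mrc1, Arg1 and Folr2. The share of all genes with this order was not counted, so the 5 cannot be read as an excess. TNKO tumour 1 was the highest in 11 of the 34 and in 3609 of all 18193 genes. WT tumour 3 was the lowest in 12 of the 34 and in 3930 of all 18193 genes. Skeletal muscle markers were lower in 8 of 8, with sums of 51.1716 to 56.2209 in TNKO tumours and 55.1623 to 56.5059 in WT tumours, and TNKO tumour 1 was the lowest in 8 of 8. Hybridisation control probe sets, which measure added bacterial and phage transcripts, were higher in 18 of 18, 16 of them with separate groups, by 0.173 to 61.4 millionths (median 16.8, or 3.18 residual SDs). In residual SDs Clec4n (4.72), Tyrobp (3.46) and Stab1 (3.45) lay above that median, and the other 7 separate genes, at 1.17 to 2.98, below it. The order depends on the scale. In millionths Tyrobp (32.3) lay inside the range of the controls, and every other separate gene, at 122 or more, lay above it. The part of other cells, of fat and of hybridisation in the macrophage values was not tested.

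The adjusted p values of the 10 separate genes ran from 0.0659 for Clec4n to 0.992 for Stab1 and Msr1 over the alternatives, and no gene of the 34 passed in any of them. Subtracting each array's median deviation from the probe set means, an alternative added after the data were seen, left 25 genes higher, 10 separate and 7 at an unadjusted p under 0.05. The array medians that the other scaling subtracts ran from 6.5674 to 6.5699, a range far wider than the span of the median probe set.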

How the data were processed

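Biotinylated RNA made from 100 ng of total RNA of each of 6 tumours was measured on 1-colour Affymetrix arrays. The values deposited by the authors are 1 per probe set and tumour, already processed and on a log scale taken as log2 from their range. The submitters' processing notes name R 2.7.2. How probes were summarized and arrays normalized is not given in the sources used. Precision is limited by the number of arrays.

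Of 45101 probe sets, 64 controls were left out of the test. Names came from the platform annotation: 34945 probe sets had 1 symbol, 932 several and 9160 none, and all 34 members matched a reference gene table by gene identifier. Any pair of arrays shared 21 to 43 exactly equal values, so each was counted as its own replicate.

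TNKO was compared with WT by limma 3.58.1 in R 4.3.3 (lmFit, eBayes, two-sided, Benjamini-Hochberg over 45037 probe sets, threshold 0.05). The members and the 15 companion lists (160 of 175 genes measured) were chosen with earlier results of these data known. Named are all members, further probe sets of members, and at most 3 genes with the smallest p per companion list; further probe sets that agreed in direction were named after their values were seen. The fit, which left replicate numbers unpaired, was tested on simulated data. It recovered 3 of 50 simulated differences of 5 residual SDs, 39 of 50 of 10 and 48 of 50 of 20, with 3 false calls. The alternatives changed the scaling (by quantiles, by array medians and by a method added later), the eBayes settings, filters on level and on a span of 0.001, array weights, a replicate block and gene means, or left out each array.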

Additional observations from a re-analysis of the deposited data

How the results depend on the processing

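No member passed adjustment under any alternative. The counts of members held within 1.5 times (20 to 28 higher, 5 to 7 at an unadjusted p under 0.05) except under quantile normalization, subtraction of array medians and the filter on span. Quantile normalization left 7 higher, 0 at an unadjusted p under 0.05 and 0 separate, and subtraction of array medians left 6, 0 and 0. Of all 18193 genes these scalings left 319 and 237 higher, and 31 and 32 separate with TNKO above. The filter on a span of 0.001 tested 7 members, of which 7 were higher and 2 had an unadjusted p under 0.05. The median difference of all 790 probe sets that passed this filter was 629 millionths, and how many of them were higher was not counted. A difference between the groups itself widens the span, so 7 of 7 is no separate evidence of direction. Over all probe sets 79 were called by limma, against 0 after quantile normalization (591 at an unadjusted p under 0.05), 2 without moderation, 285 above the median level (68 higher, 217 lower), 0 of 790 with the filter on span (155 unadjusted), 0 with the replicate block (7816 unadjusted) and 0 to 73 with 1 array left out (0 without WT tumour 1 or 3, with 7144 and 6807 unadjusted). The same-numbered arrays' deviations had Spearman correlations of 0.0829, -0.0195 and 0.0155 over probe sets, so the numbers do not pair the tumours; the block left 6 members higher and 1, Gpnmb, lower at an unadjusted p under 0.05.

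Subtraction of array medians moved every difference by the same amount (median -764 millionths) and quantile normalization moved the median to -538. Differences above 0 as deposited turned below 0 after quantile normalization, in millionths, -6250.4 for Lyz2, -1280.4 for Csf1r, -436 for Tyrobp, -589.5 for C1qb, -784 for C1qc, -819.6 for Fcgr3, -485 for Fcer1g, -391 for Maf, -494 for Clec4n, -584 for Adgre1, -263 for Msr1, -1153 for Fcgr1, -507 for Cd68, -167 for Stab1, -549.8 for Mertk, -459.7 for Siglec1, -537 for Vsig4 and -331 for Cd163. After subtraction of array medians they were -642 for Lyz2, -761 for Csf1r, -731 for Tyrobp, -759 for C1qb, -759.8 for C1qc, -756 for Fcgr3, -758 for Fcer1g, -629.7 for Maf, -487 for Clec4n, -756 for Adgre1, -356 for Msr1, -739 for Fcgr1, -739 for Cd68, -369 for Stab1, -569 for Mertk, -751 for Siglec1, -553 for Vsig4, -760.3 for Cd163 and -763 for Chil3. The other differences kept their sign. With 1 array left out, 15 members changed sign at least once; the ranges in millionths were -7.00 to 1.10 for Trem2, -1258 to 7456 for Arg1, -4.10 to 6.02 for Chil3, -49.6 to 4.66 for Cd14, -26.3 to 27.2 for Fcer1g, -12.0 to 11.4 for Aif1, -12.6 to 19.5 for C1qc, -18.1 to 10.5 for C1qa, -1.88 to 6.89 for Csf1r, -11.7 to 22.5 for C1qb, -1.48 to 47.1 for Fcgr1, -0.822 to 0.246 for Marco, -27.7 to 1.19 for Gpnmb, -60.8 to 443 for Vsig4 and -3.22 to 7.47 for Cd163. Why these signs changed was not tested further. Probe sets near the array's lower end, such as Chil3 and Cd163, give no measure of how far above background they lie.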
